A study of Rattus norvegicus with 18 samples.

Results

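Gene expression was described in untreated rings of rat thoracic aorta that had been in culture for 14 days. The samples were those whose titles name untreated aorta, 6 of the 18 samples of the series. They are 3 RNAs, each hybridised to 2 Affymetrix array types, RAE230A (array A) and RAE230B (array B). Rings treated with vascular endothelial growth factor or angiopoietin-1 make up the rest of the series and were not analysed here.

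The rings came from male Fisher 344 rats aged 5 weeks per the labels, or 1 month in the design text. Aortas were cut into rings of 2 mm, washed 12 times and kept in suspension in serum-free EBM, an endothelial basal medium, and RNA was pooled from 4 to 6 rings. The rings carried no transgene and received no factor, and the labels place the harvest 20 h, and the design text 18 h, after the time when other rings were treated. The design text has each of 3 animals give 1 RNA to this group, but the labels do not tie a replicate number to an animal, so the spread between the 3 RNAs may be partly technical. The labels give a 2-cycle labelling protocol for replicate 1 and the standard protocol for replicates 2 and 3, so protocol and replicate cannot be told apart.

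An aortic ring holds an endothelial lining, a muscular media of smooth muscle cells between elastic lamellae, and an adventitia of fibroblasts, macrophages, fat and nerve. In culture the ring is an injured vessel without flow or serum. Smooth muscle cells in such explants can lose contractile proteins and take on a matrix-producing form, fibroblasts divide and spread, and resident macrophages persist beside sprouting endothelium.

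The deposited value of a probe set is its signal, an intensity on a linear scale summarised over its probes. A gene was read from its brightest probe set, and its percentile is the rank of its median signal over the 3 arrays among the probe sets of that array type, with 100 the brightest. Because signal also depends on the probes, this is an order of array signal and no exact order of transcript amounts. A list of 75 measured genes of other organs (retina, testis, pituitary, pancreas, liver, kidney, gut and brain) set the off-tissue level, which was the 90th percentile of their signals and came to 81.3, 90.4 and 78 on array A in replicates 1, 2 and 3. A gene was counted as above it when at least 2 of 3 arrays exceeded their own level. Of 10336 genes on array A outside that list, 6698 were above, or 64.8%, and every list below is read beside that share and beside the median percentile of 59.1 over all genes. Array B measured 4 genes of the off-tissue list, so its genes are given by percentile only, beside a median of 64.3.

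Replicate 2 stood apart. The rank correlation over the probe sets of array A was 0.958 between replicates 1 and 3, against 0.899 and 0.891 for replicate 2 with each of them, and on array B it was 0.905 against 0.856 and 0.833. The Gapdh 3' control probe set read 2963.7 and 2217.8 in replicates 1 and 3 on array A but 64.4 in replicate 2. Its 5' counterpart read 249.2, 37.8 and 243.4, so in replicate 2 both ends lay below the off-tissue level and their ratio gives no reading of RNA quality there. The 3' to 5' ratio of the actin control on array B was 3.02, 3.04 and 5.08, with replicates 1 and 2 alike there. On array A the actin ratio was 4.34, 1.86 and 7.7, so those 2 replicates were not alike. The Gapdh ratio was 11.89 and 9.11 in replicates 1 and 3 on array A. On array B it was 13.58, 4.65 and 6.46 in replicates 1, 2 and 3. Across 100 probe sets present on both array types, each RNA correlated best with its own partner array. Among the genes above the off-tissue level, the SD of log2(signal + 16) over the 3 arrays had a median of 0.39, and it was 0.22 without replicate 2. The part of labelling and RNA quality in the replicate differences was not tested.

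On array A the highest signals belonged to the protein synthesis machinery and to collagen-rich matrix. Of the 100 top-ranked genes on array A, 29 encoded ribosomal proteins, 15 belonged to a matrix list, 13 to a cell type list, 8 to a metabolism list and 3 to an inflammation list (a gene may be in more than 1). Another 33 were in no list and encoded no ribosomal protein. None of the 100 was on the endothelial, chemokine or cytokine lists. Ribosomal protein Rps23 ranked at the top, with a signal of 10064, 14708.3 and 11949.9 in replicates 1, 2 and 3. Mgp, the matrix Gla protein that holds back calcification of the vessel wall, ranked 5 with 7912, 11610.7 and 10110.3. Col1a2, a chain of type I collagen, ranked 9 with 6935.6, 9023.9 and 9319.3. All 3 arrays were high for each of these genes.

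**Figure D1:**
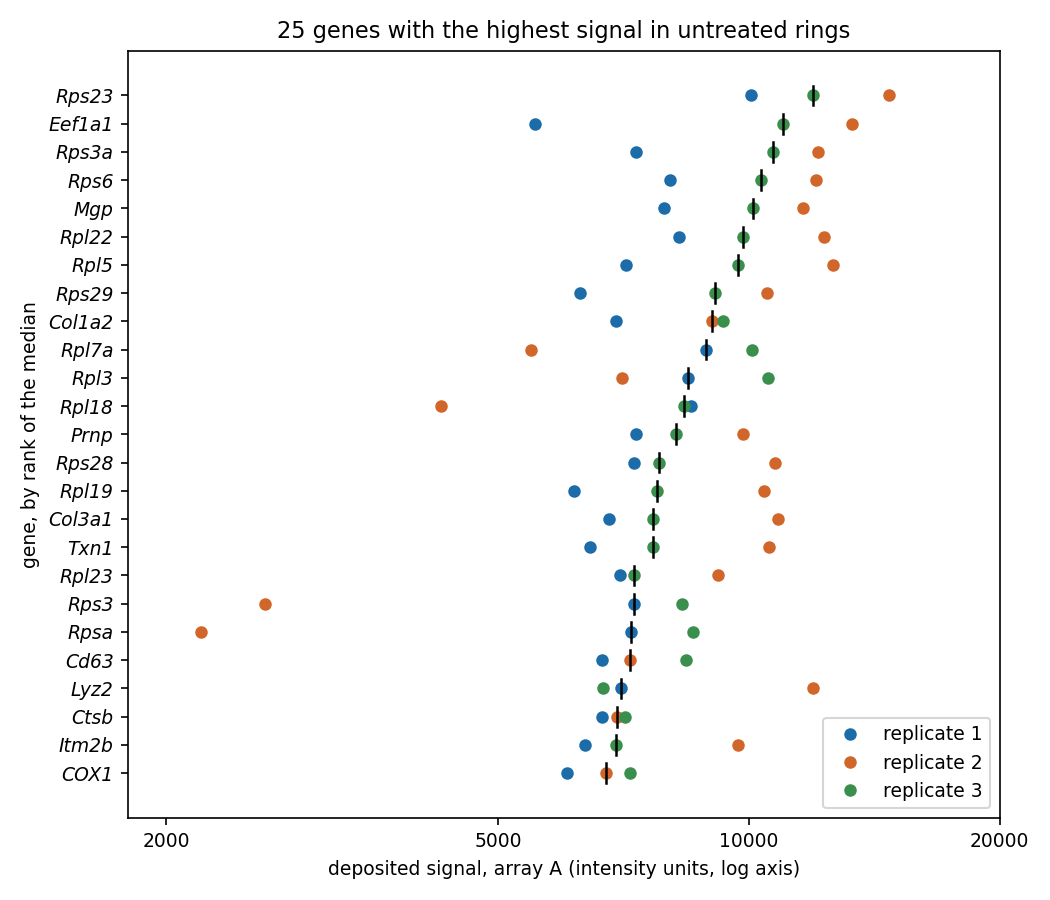
Deposited signal on array A (horizontal log axis, intensity units) of the 25 top-ranked genes in untreated rings, with 1 point per replicate and a black bar at the median. Ribosomal proteins from Rps23 at 11949.9 downwards fill most rows, Mgp, Col1a2 and Col3a1 lie among them, and replicate 2 lies far to the left for Rps3 (2627.2) and Rpsa (2201.3).

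The other leading genes outside the ribosome were of several kinds. Col3a1, the type III collagen chain of distensible vessels, read 6800.1, 10841.6 and 7677.3. Prnp, the cellular prion protein, read 7322.4, 9850.5 and 8177.7, and Txn1, the cytosolic thioredoxin, 6456.8, 10572.5 and 7672.7. Lyz2, the lysozyme of macrophages, read 7033.8, 11936.4 and 6692.4 at rank 22. The lysosomal protease Ctsb followed at rank 23 with 6664.1, 6946.8 and 7107, the tightest of these sets of values. Array A thus placed a macrophage lysozyme and a lysosomal protease next to ribosomal proteins and collagens.

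On array B the top gene was Gas6, the ligand of the TAM receptors that take part in clearance of dying cells, with 17845, 20409.6 and 22182.3. Actr2, a subunit of the actin-nucleating Arp2/3 complex, had 19566.3, 20091.4 and 24801.1. Fgl2, a fibrinogen-like protein made by macrophages and endothelium, ranked 6 with 6831.4, 14970 and 11782.3, and Tpm3, a cytoskeletal tropomyosin, ranked 10 with 13147.3, 10086.1 and 7692.5. For Gas6 the lowest and highest replicate lay close together, whereas Fgl2 was lowest in replicate 1.

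By the median over the 3 arrays of type A, mesenchymal markers had the highest percentiles of the cell type lists. The list of modulated smooth muscle, the matrix-producing form of the muscle cell, had 15 of 16 genes above the off-tissue level and a median percentile of 95.6. Fibroblast markers had 20 of 23 above and a median percentile of 90.5, and contractile smooth muscle markers 20 of 24 and 83.3. This order was not the same on every array: in replicates 1 and 2 the macrophage median was 90 and 86.8, above the fibroblast (88.5 and 81.4) and contractile (83 and 71.1) medians, and on array B it was 97.1 against 56.8 and 41.1. With the mean over a gene's probe sets the contractile median was 70.8. In bulk RNA fewer cells of a type and less RNA per cell cannot be told apart.

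**Figure D2:**
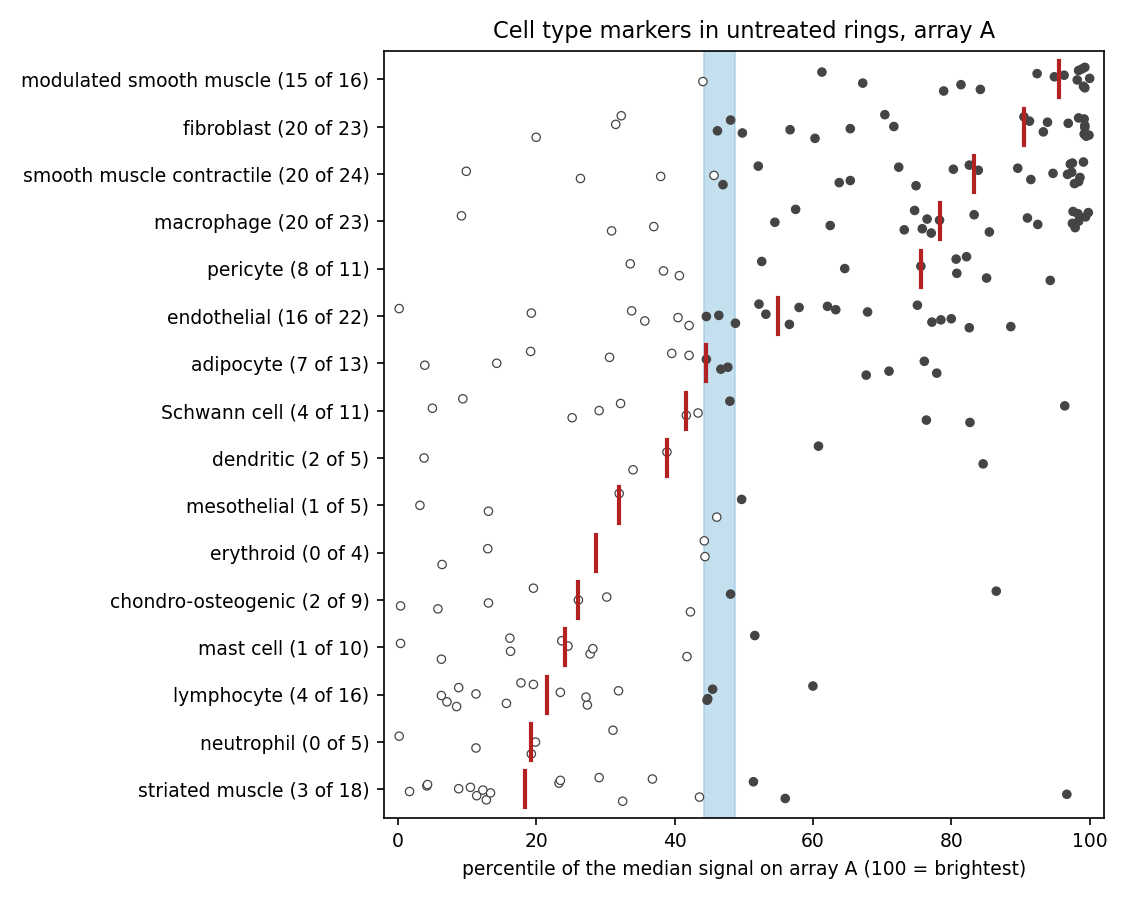
Percentile of each marker gene's median signal on array A (horizontal axis) for 16 cell type lists, filled where the gene was above the off-tissue level and open where not, with a red bar at the list's median and the count above in brackets. The blue band spans the level on the 3 arrays (44.2 to 48.7). Modulated smooth muscle, fibroblast, contractile and macrophage lists lie mostly to its right, neutrophil and erythroid markers have no gene above it, and 1 striated muscle gene stands alone at 96.7.

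The contractile genes did not share 1 level. Myh11, the smooth muscle myosin heavy chain, read 1680.7, 1804.1 and 3791.2, at percentile 96.8. Tagln, the actin-binding protein SM22, read 2976.2 and 1977.1 in replicates 1 and 3 but 71.2 in replicate 2. Acta2, smooth muscle actin, read 304.7, 89 and 313.9, at percentile 74.9. For Acta2 and Tagln replicate 2 was the lowest array and lay below its off-tissue level, whereas Myh11 was above on every array.

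Cnn1, the calponin that damps actomyosin, read 198.5, 204 and 149.2. Des, the muscle intermediate filament desmin, read 36.1, 28.4 and 53.6 and was not above the level on any array. Tpm2 (percentile 99.1), Flna (98.6), Cav1 (98.4) and Cald1 (97.8) ranked highest of this list, all of which non-muscle cells also express. The 4 genes not above were Des, Lmod1, Kcnmb1 and Pcp4, markers of differentiated muscle or its channels.

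Genes of the modulated form lay higher. Fn1, the adhesive glycoprotein fibronectin, read 4574.5, 4621.7 and 6875.2. Vim, the mesenchymal intermediate filament, read 2996.3, 5983.5 and 4419.4. Vcam1, an adhesion molecule for monocytes that modulated muscle cells also carry, read 2362.1, 4752.1 and 3648.8. Spp1, osteopontin, was lowest in replicate 1, with 704.9, 2211.3 and 1628.7. Krt8, a simple-epithelial keratin, was the 1 gene not above. Fibroblasts express several of these genes, so this list and the fibroblast list do not separate the 2 cell types.

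Fibroblast markers were led by Col1a2, Col1a1 (5506, 5998.7 and 4890.4) and the small proteoglycans Lum (3370.1, 4270.2 and 4476) and Dcn (4098, 3736.7 and 6926.7). Pdgfra, the receptor that marks fibroblasts, read 684.5, 1717.3 and 844.1. Pi16, a marker of adventitial progenitors, read 114.7, 39.8 and 95.7 and passed the level on 2 arrays only. The 3 not above were Tcf21, Ly6c and Clec3b. The list ran from percentile 99.9 for Col1a2 to 20 for Clec3b.

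Pericyte markers were above the level for 8 of 11 genes, all 8 on every array, with a median percentile of 75.6. Abcc9, a channel subunit of mural cells, read 1209.4, 1161.3 and 838, Rgs5, a regulator of G protein signalling, 580.4, 389.8 and 443, and Pdgfrb, the receptor that recruits mural cells, 408.7, 212.5 and 476.5. All 5 defining genes of the list (with Cspg4 and Kcnj8) were above. Cox4i2, Higd1b and Ndufa4l2 were not, so 72.7% of the list was above, beside 64.8% of all genes.

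Endothelial markers differed between the array types in rank, with a median percentile of 54.9 over 22 genes on array A and of 80 over 9 genes on array B. Of the 22 genes of array A 16 were above the off-tissue level, but 9 were above on all 3 arrays, and no gene was at or over percentile 90, whereas 3 of the 9 on array B were. Kdr, the main receptor of vascular endothelial growth factor, was even across the arrays of type A at 400.7, 388.1 and 392. Its array B probe set stood at percentile 31.8. Egfl7, a secreted endothelial matrix protein, ranked highest with 674, 294.3 and 744. Pecam1, the junctional adhesion molecule, read 225.9, 38.5 and 118.1, and Vwf, the clotting factor carrier stored in endothelium, 201.7, 71.5 and 113.6. In replicate 2 Pecam1 and Vwf were below the off-tissue level, and replicate 2 was the lowest array for 15 of the 22 genes, against 33.9% of all genes. On array B Tek, the receptor of the angiopoietins, stood at percentile 99.1 with 3019.4, 3273.2 and 3765. The endothelial transcription factor Erg stood at 91.3 there with 891.8, 522.3 and 785.2. On array A Erg read lower, with 107.3, 16.7 and 98.8 at percentile 48.8. Sox17 read 3593.5, 2702.8 and 2257.5 on array B and 1.8, 0.9 and 0.9 on array A, so its probe sets disagreed.

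Macrophage markers had the highest median of the immune cell lists. On array A 20 of 23 genes were above the level, 17 of them on every array, with a median percentile of 78.3. Cd68, a lysosomal glycoprotein of macrophages, read 2427.8, 2435.4 and 1060.6, and Gpnmb, a glycoprotein of lipid-loaded and lysosome-rich macrophages, 5086.5, 1806.7 and 5426.7. Csf1r, the receptor on which macrophages depend, read 176.5, 328 and 139.3. All 3 arrays exceeded the off-tissue level for these genes.

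On array B 7 of 10 macrophage genes lay at or over percentile 90, a place held by 18% of all its genes. Cybb, the catalytic subunit of the phagocyte oxidase, read 6311.5, 4652.9 and 3912.5 there, but stood at percentile 54.5 on array A. On array B Mrc1, the mannose receptor of tissue macrophages, read 1810.7, 5856.9 and 1613.1, and Adgre1, the antigen F4/80, 1523.3, 2174.1 and 1553.6. Cd163, the haemoglobin scavenger receptor, was lower at 160.2, 125.4 and 88.9, percentile 48.6. The not-above genes of array A were Coro1a, C1qb and Itgam, and Itgam, the integrin alpha M chain, read 8.2, 6.4 and 8.1.

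Markers of other blood cells were near the bottom. No neutrophil gene of 5 and no erythroid gene of 4 was above the off-tissue level, and S100a8, a calprotectin subunit abundant in neutrophils, read 0.9, 1.3 and 0.6. Hbb, a beta globin chain, read 11.9, 10.5 and 13.2. Lymphocyte markers had 4 of 16 above and a median percentile of 21.6. The T cell receptor chains Cd3e (0.6, 6.2 and 13.5) and Cd3d (19.5, 4.2 and 15.9) and the B cell chain Cd79b (4.9, 8.5 and 5.6) were all below it, and of the 4 that passed, Lck alone was above on all 3 arrays with 158.3, 172.5 and 126.6. Mast cell markers had 1 of 10 above, Tpsb2, a tryptase, at 111, 129.8 and 70.

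Markers of fat were mixed, and fewer of those of nerve sheath and serosa were above the level. Adipocyte genes had 7 of 13 above, or 53.8%, led by Cidea, a lipid droplet protein, at 353.5, 234.4 and 596.3, while Plin1, which coats the fat droplet (40.5, 60.6 and 44.4), and the hormone Lep (3.5, 5.9 and 4) were not. Adipoq, the adipocyte hormone adiponectin, read 136.5, 473.9 and 310.6 on array B at percentile 75.7. Lipe, the hormone-sensitive lipase, stood at 91.8 on array B but at 14.3 on array A, where it was not above. Schwann cell genes had 4 of 11 above, of which Pmp22 (percentile 96.4) and Cnp (82.7) are also made outside nerve, and the lineage factor Sox10 read 9.3, 8.2 and 7.5. Mesothelial genes had 1 of 5 above and chondro-osteogenic genes 2 of 9, with Comp, a cartilage and tendon matrix protein, at 854.5, 109.1 and 583.4 and the bone protein Bglap at 1.3, 1.3 and 1.9. Dendritic cell genes had 2 of 5 above on array A, Cd83 and Itgae.

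Striated muscle markers had 3 of 18 above and a median percentile of 18.4. Ckm, muscle creatine kinase, read 70.5, 109.9 and 77.8, and Myh6, a cardiac myosin heavy chain, 2.1, 25.7 and 11. The exception was Myh1, a myosin heavy chain of fast fibres, at 1900.6, 1760.6 and 1133.2. All 5 probe sets annotated to Myh1 were above the level. Myosin heavy chains are near-identical relatives in places, and which transcript these probe sets read is uncertain.

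On array A most structural matrix genes were above the off-tissue level, with exceptions in each list. Fibrillar collagens had 7 of 10 above, or 70%, of which Col1a2, Col3a1, Col1a1 and Col5a2 (4394.6, 6679.8 and 5209.8) lay at percentiles 99.5 to 99.9. Of the collagens known from cartilage, Col2a1 was above on all 3 arrays, with 89, 98.6 and 95.8 at percentile 48.1, and Col11a1 and Col11a2 were not above on array A, nor was the minor Col27a1. Basement membrane genes had 15 of 18 above, each of them on all 3 arrays, with a median percentile of 90. Col4a1, a chain of the type IV network, read 1882, 3958.6 and 2260, Lamb2, a laminin beta chain, 1535.3, 1806.6 and 2117.7, and the linker Nid1 1879.5, 1639.1 and 1706.2. Interstitial and basement membrane collagens were thus both present at high signal on array A.

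Elastic fibre genes had 15 of 16 above, and Fbn2, a fibrillin of development (4.2, 17.2 and 13.3), was the exception. Fbn1, the adult fibrillin, read 2277.4, 2498.3 and 2710.4. Lox, the enzyme that crosslinks elastin and collagen, read 1697.7, 3058.2 and 1555. On array B elastin itself, Eln, read 515.9, 535.6 and 1182.4 at percentile 86.5, and on array A 327.8, 104 and 510.2 at percentile 76.4. Efemp2, a fibulin needed for elastic fibre assembly, read 4502.2, 2676.3 and 7587.3 on array B at percentile 99.5. Elastin and Efemp2 were both highest in replicate 3.

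Proteoglycans had 15 of 17 above. Bgn, the small proteoglycan biglycan, read 4860.9, 939.9 and 6325.8, lowest in replicate 2, and Vcan, the large proteoglycan of the remodelling wall, 1645.7, 1791.1 and 944.6. Acan, the aggrecan of cartilage, and Gpc3 were not above. Matricellular and adhesive genes had 20 of 23 above, with Ccn2, a growth factor-induced matrix protein, at 5905.8, 7169 and 6566.4, Postn, periostin, at 4205.2, 3210.5 and 5306.6, and Sparc, a collagen-binding protein, at 3411.6, 1416.7 and 5359.8. Vtn, the plasma protein vitronectin, was near the floor of the array at 2, 5.5 and 2.5.

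Enzymes that process collagen had 14 of 15 above and a median percentile of 91.2. P4hb, a subunit of prolyl hydroxylase, read 3303.1, 620.6 and 5764.3. Plod2, which hydroxylates lysines for stable crosslinks, read 1480.3, 2507.6 and 1707.2. Serpinh1, the collagen chaperone, read 2461.5 and 2235.3 in replicates 1 and 3 and 26.8 in replicate 2, and its SD of 3.34 log2 units was the largest among the 500 top-ranked genes. Replicate 2 was the lowest array for 11 of these 15 genes.

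On array A proteases of the matrix and lysosome were high as well. Metalloproteinases and their inhibitors had 14 of 19 above. The inhibitor Timp2 read 4403.1, 5331.6 and 5084.3 and its partner in gelatinase activation, Mmp2, 3716.5, 2248.8 and 6047.4. Mmp12, the elastase of macrophages, read 2208.7, 4939.5 and 1211.3, with the order of the arrays seen for several macrophage genes. Mmp14, the membrane enzyme that activates Mmp2, had signals of 1701.9, 273.1 and 4091.3 on array A, and array B gave 2393.8, 200.6 and 3452.6. Mmp7, Mmp8 and Mmp10 were not above on array A.

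Cathepsins and cystatins had 14 of 15 above and the highest median percentile of the matrix lists on array A, 95.1. Ctsl read 2528.5, 3055.6 and 3231.7, and the secreted inhibitor Cst3 3506.8, 623.3 and 3691.2. In the plasminogen system 6 of 10 genes were above. Plau, the urokinase activator, read 3280.1, 1366.4 and 803.4, and the plasminogen docking protein Anxa2 3782.7, 6397.1 and 6109.4. Plg, plasminogen itself, a liver product, read 58.8, 44.5 and 48.2 and was not above. Matrix medians on array B, from few genes each, lay on both sides of the 64.3 over all genes. They were 51.7 (fibrillar collagens), 62.4 (basement membrane), 62.8 (matricellular), 64.2 (cathepsins) and 39.9 (plasminogen system). Higher were proteoglycans (78.2), elastic fibre and collagen-processing genes (both 86.5) and metalloproteinases (92.5).

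**Figure D3:**
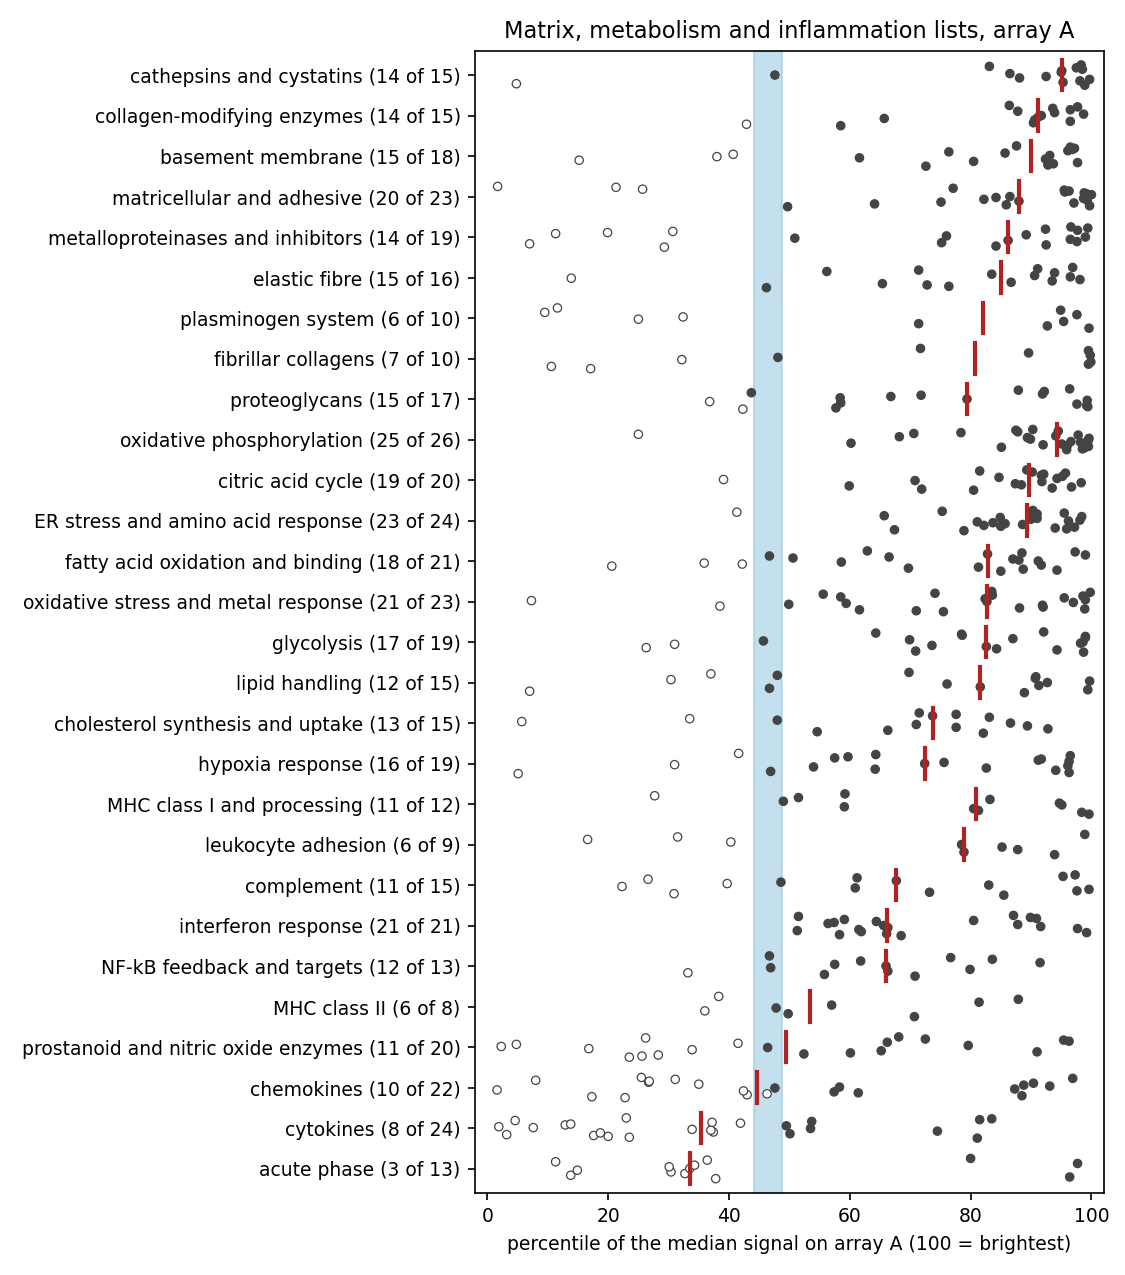
Percentile of each gene's median signal on array A (horizontal axis) for 9 matrix, 9 metabolism and 10 inflammation lists, in that order from the top, with symbols, red medians and the blue off-tissue band as in the plot of cell type markers. Matrix and metabolism medians lie between 72.4 and 95.1, while acute phase (33.5) and cytokine (35.4) medians lie left of the band and the chemokine median (44.7) lies in it.

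On array A genes of energy metabolism were broadly above the level. Oxidative phosphorylation had 25 of 26 genes above, all 25 on every array, at a median percentile of 94.3. Ndufa1, a subunit of complex I, read 4933.9, 6778.8 and 5824.7, and Cox8a, a subunit of cytochrome oxidase, 4387.9, 5631.9 and 5362.5. The mitochondrially encoded COX1 ranked 25 on the array with 6047.9, 6735.4 and 7198.4. The citric acid cycle list had 19 of 20 above at a median percentile of 89.7. It was led by Mdh1, the cytosolic malate dehydrogenase (3295.9, 1660.3 and 2723.4), and Idh2, the mitochondrial NADP-linked isocitrate dehydrogenase (2031.2, 1476.9 and 1777.9). Idh3a, of the NAD-linked isocitrate dehydrogenase, was lower at 157.6, 225.5 and 97.5, percentile 59.9. Pc, the pyruvate carboxylase, was the exception. On array B, beside 64.3 over all genes, 4 oxidative phosphorylation genes had a median percentile of 54 and 2 citric acid cycle genes 43.3.

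Glycolysis had 17 of 19 above. Pgk1, phosphoglycerate kinase, read 2662.2, 4686.6 and 3877.6, and Ldha, the lactate dehydrogenase chain of glycolytic tissue, 1731.3, 2621.4 and 2667.2. Hk2, the inducible hexokinase, read 45.1, 62.5 and 27.8 and was not above, nor was the muscle enolase Eno3. Hypoxia response genes had 16 of 19 above at a median percentile of 72.4. Ndrg1 read 1336.1, 2563.5 and 1617.9 and Bnip3, a mitophagy receptor, 1107.4, 1639.7 and 1140.9, but Vegfa, the growth factor itself, read 70.6, 124.4 and 71.3 and passed the level on 1 array only. Replicate 2 was the highest array for 12 of these 19 genes. On array B the median percentile was 11.7 for 3 glycolysis genes and 43.1 for 2 hypoxia genes.

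Fatty acid oxidation and binding genes had 18 of 21 above. Fabp5, a fatty acid carrier of macrophages and epithelium, read 3898.8, 5380.5 and 1797.7, and Hadhb, part of the trifunctional enzyme of beta oxidation, 1998, 2417.6 and 1722.4. Cd36, the fatty acid translocase, read 25, 27.7 and 15.8 and was not above. Cholesterol synthesis and uptake had 13 of 15 above but 1 gene at or over percentile 90 on array A, Fdps, farnesyl diphosphate synthase, at 986, 213.7 and 975.4. The 2 genes of this list on array B lay at percentiles 91.9 and 96.1. In lipid handling 12 of 15 were above, and Npc2, which moves cholesterol out of lysosomes, read 5943.1, 7282.2 and 6338.5. Apoe, the lipid carrier made by macrophages, read 4901.8 and 8402.8 in replicates 1 and 3 and 239 in replicate 2. On array B Pltp, a phospholipid transfer protein, stood at percentile 99.5 and Abca1, the cholesterol exporter, at 97.2.

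On array A stress genes followed the same picture. Oxidative stress and metal response had 21 of 23 above, with Sod1, the cytosolic superoxide dismutase, at 3073.6, 3139.2 and 3750.9. Mt2A, a metallothionein, read 1679.5, 3831.4 and 3989.9, but another metallothionein, Mt1, read 6.4, 2.9 and 10.5. Mt1 and Gsr were not above. Gpx1, glutathione peroxidase, was again low in replicate 2, with 3622.7, 263.5 and 5562.3. Endoplasmic reticulum stress and amino acid response had 23 of 24 above, with Hspa5, the chaperone BiP, at 3896.1, 1296.2 and 2564.5 and Atf4, the transcription factor of the integrated stress response, at 1510.4, 1210.3 and 2023.3. Slc7a5, an amino acid transporter, was the 1 gene not above.

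On array A few genes of secreted inflammatory mediators were above the level. Cytokines had 8 of 24 above, or 33.3% beside 64.8% of all genes, and chemokines 10 of 22, or 45.5%. The cytokines that led were Tgfb3 (722.1, 113.1 and 480.4), Tgfb2 (427.1, 645.1 and 411.6) and Csf1, the macrophage growth factor (257.5, 487.2 and 417.4). Il10 read 3.5, 4.8 and 2.6 and Il1rn, the interleukin-1 receptor antagonist, 6.6, 8.9 and 6.6, both not above. Il1b, interleukin-1 beta, ranked 6 on the list at percentile 53.5 with 89.6, 174.9 and 120. Tnf (51.4, 29.7 and 20.6), not above on any array, and Il6 (72, 93.6 and 69.7), above on 1 array, were picked out after their values had been seen.

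Pf4 and Cxcl12 led the chemokines. Pf4, a chemokine of platelets and macrophages, read 1840.9, 3064.1 and 1142, Cxcl12, the stromal chemokine, 1009, 1332.7 and 880, and Cxcl16, a scavenger-receptor chemokine, 780.8, 1186.1 and 248.9. Ccl2, the monocyte attractant, read 286.2, 866.4 and 669.5 and was lowest in replicate 1. Ccl6, Cxcl6 and Ccl17 were not above. Replicate 2 was the highest array for 13 of the 22 chemokines, against 45.6% of all genes. On array B, beside a median percentile of 64.3 over all genes, 10 chemokines had a median of 35.6. The 3 cytokines there had a median of 66.5, from 41.1 to 93.7.

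Among enzymes of prostanoid and nitric oxide synthesis 11 of 20 were above. Ptgis, the prostacyclin synthase of vessels, read 1378.3, 1361.2 and 1659.5, and Ptgs1, the constitutive cyclooxygenase, came to percentile 72.5. Nos2, the inducible nitric oxide synthase, read 17.7, 26.3 and 9.5 and was not above on any array. Leukocyte adhesion genes had 6 of 9 above, or 66.7% beside 64.8% of all genes, led by Vcam1 and by Alcam (702.7, 2114.2 and 1108). Icam1 ranked 4 on the list with 535.7, 219.5 and 711.4. The selectins Sele (20.7, 17.5 and 17.3) and Selp (51, 46.3 and 15.9) of activated endothelium were not above. The 2 leukocyte adhesion genes of array B lay at percentiles 94 and 94.3. Genes of the NF-kB pathway and its feedback had 12 of 13 above, at a median percentile of 66, with Rela, a transactivating subunit, at 858.2, 418.7 and 862.2 and the subunit Nfkb1 at 554.2, 349.8 and 391.2.

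Complement genes had 11 of 15 above. The proteases of the first component, C1s (3749.6, 5688.3 and 6214.1) and C1r (2206.8, 1075.8 and 4098.5), and their inhibitor Serping1 (2013.6, 547.2 and 2978.7) led, and the membrane attack component C9 was not above. Acute phase genes had 3 of 13 above, namely Lbp, the lipopolysaccharide-binding protein (2283.8, 1038 and 2288.4), the copper carrier Cp (1119, 1668.9 and 1978.1) and Serpina3n (393.3, 256.3 and 486.2). The liver proteins Crp, Hpx and Fgg were not above. The class I antigen presentation list had 11 of 12 above, with B2m at 3715.4, 8592.4 and 5901.3. Class II genes had 6 of 8 above, with RT1-Da at 710.3, 641.9 and 127.8 and the invariant chain Cd74 at 286.4, 250.9 and 147.3, both lowest in replicate 3.

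On array A the interferon response varied more between the RNAs than the other inflammation lists, by the median SD of its genes. On array B that median was 0.73 for 7 interferon genes and 1.12 for 3 cytokine genes. All 21 genes measured on array A were above the off-tissue level, 15 of them on every array, at a median percentile of 66.1. Their SD over the 3 arrays had a median of 1.06 log2 units, against 0.39 over all genes above the level. Interferons act through cell surface receptors, response elements in the promoters of their target genes receive the signal, and many of these genes encode antiviral proteins.

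The values of single interferon genes show where the spread lay. Irf7, the factor that amplifies interferon production, read 865.3, 2314.9 and 207.5, with an SD of 1.70 log2 units. Rsad2, the antiviral enzyme viperin, read 816.9, 1328.3 and 143.1, and Mx1, an antiviral GTPase, 636.7, 899.6 and 103.8. In each of these genes replicate 2 was the highest array and replicate 3 the lowest. Oas1a, an oligoadenylate synthetase, read 142.3, 212.2 and 33.7 and Mx2 135.6, 163.8 and 40.5, so that replicate 3 lay below its off-tissue level.

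The order with replicate 2 above 1 and 1 above 3 held for 11 of the 21 genes, against 21.9% of the 6698 genes above the level. Replicate 1 was above replicate 3 in 18 of 21, against 48.7%, with a median difference of 1.05 log2 units against -0.02. Replicate 2 was above replicate 3 in 15 of 21, against 54%. The exceptions to the pattern included Ifi27, at 4382, 1173.6 and 4116, and Ifitm3, a membrane protein that blocks virus entry, at 1708.3, 2440.1 and 2240.7. On array B, read from the same 3 RNAs, 6 of 7 interferon genes were higher in replicate 1 than in replicate 3, against 51% of all its genes. There 7 of 7 were higher in replicate 2 than in replicate 3, against 55.1%. Isg15, a ubiquitin-like modifier, read 1925, 3386.2 and 811.5 there, Ifit2, a binder of viral RNA, 2836.7, 7036.5 and 1684.2, and Ifi44 1605.1, 2698.9 and 966.4.

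**Figure D4:**
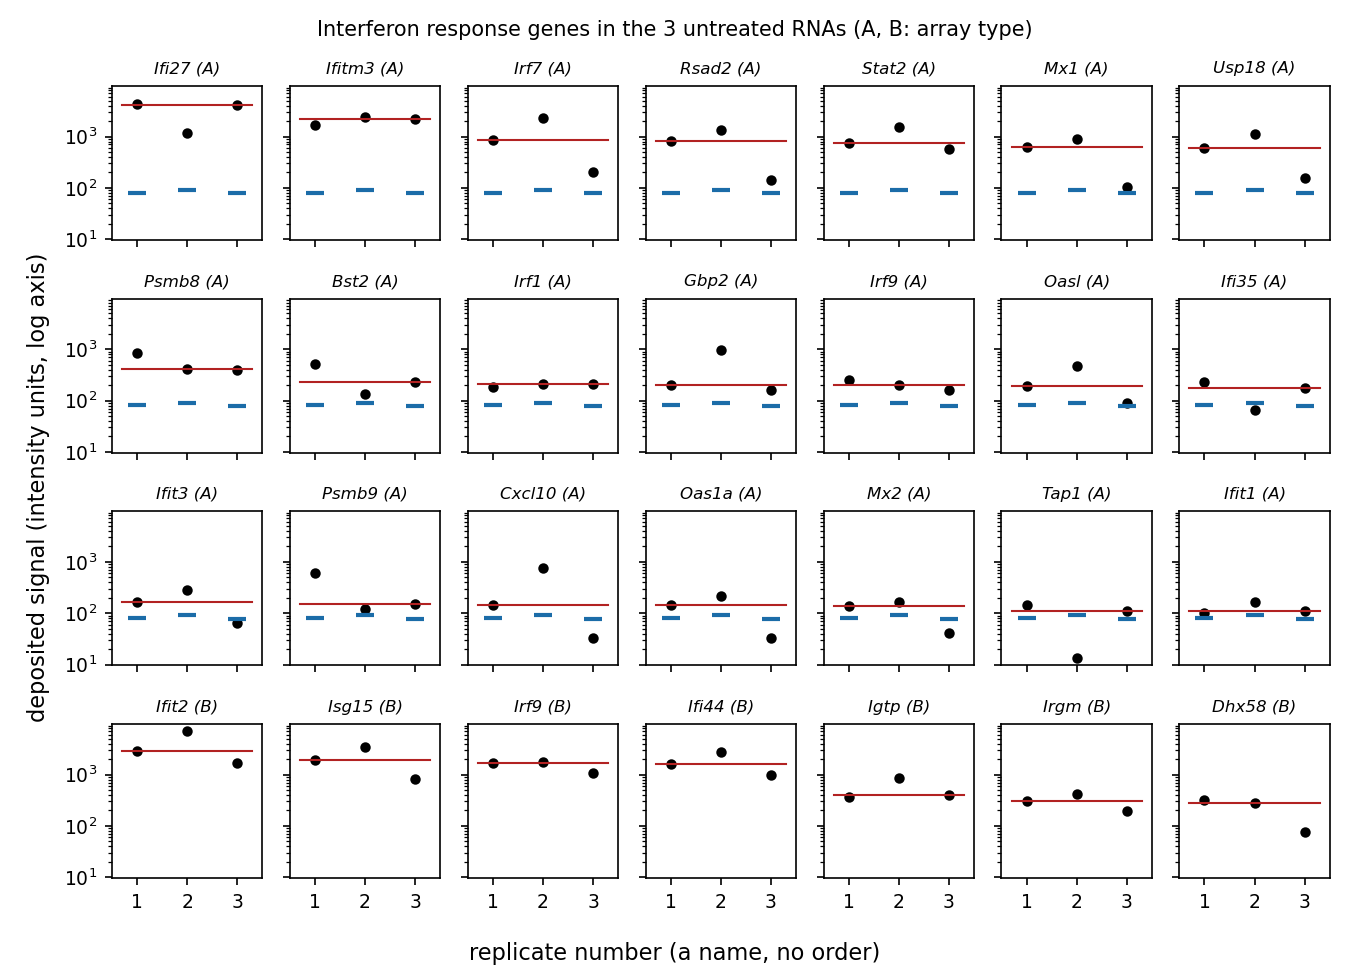
Deposited signal (vertical log axis, intensity units) of the 21 interferon response genes of array A and 7 of array B in the 3 untreated RNAs, with black points for the replicates, a red line at the median and blue dashes at each array's off-tissue level (array A only). In Irf7, Rsad2, Mx1 and Isg15 replicate 2 is highest and replicate 3 lowest (2314.9 against 207.5 for Irf7), whereas Ifi27 and Tap1 are lowest in replicate 2.

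Other lists differed between replicates 1 and 3 too. Macrophage markers were higher in replicate 1 in 20 of 23 genes, with a median difference of 0.74 log2 units, and cell cycle genes in 21 of 23 with 0.29. The order with replicate 2 above 1 and 1 above 3 held on array A for 11 of 23 macrophage genes and 10 of 22 chemokines. It held for 1 of 15 complement genes and 0 of 12 genes of class I antigen presentation. The median percentile of the macrophage list was 90, 86.8 and 75.4 in replicates 1, 2 and 3, and that of the interferon list 70.9, 81.7 and 59.6. The part of macrophage content in the interferon signal was not tested, and with 1 RNA per replicate these differences have no test.

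The promoters of the interferon genes are shown because many of these genes shared an order of the 3 RNAs, though that order was not particular to them. RefSeq promoters (build GRCr8, 250 bases before to 50 after the start) were available for 21 of the 27 interferon genes measured on either array. The core of the interferon-stimulated response element, GAAANNGAAA on either strand, was present in 14 of these 21 promoters, or 66.7%, against 3.92% of all 33469 promoters. In the following stretches of 100 bases upstream of the start, written on the strand of the gene, capitals mark the core, and overlapping cores run together.
Irf7 (chr1:205800038-205800137, minus strand): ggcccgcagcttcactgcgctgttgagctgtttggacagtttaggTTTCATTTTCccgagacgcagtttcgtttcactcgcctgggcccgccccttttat
Rsad2 (chr6:48788213-48788312, minus strand): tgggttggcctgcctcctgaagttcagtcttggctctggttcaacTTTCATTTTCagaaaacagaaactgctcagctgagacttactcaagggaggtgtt
Oas1a (chr12:41330366-41330465, plus strand): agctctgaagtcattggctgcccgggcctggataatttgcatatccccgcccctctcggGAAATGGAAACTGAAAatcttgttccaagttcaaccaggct
Ifit3 (chr1:241527226-241527325, plus strand): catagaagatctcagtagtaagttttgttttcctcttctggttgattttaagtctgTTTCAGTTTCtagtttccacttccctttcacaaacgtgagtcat

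The core began 69 bases before the start in Irf7, 147 in Rsad2, 41 in Oas1a and 44 in Ifit3. Irf7, Rsad2, Oas1a and Ifit3 were chosen after their values had been seen, and each had replicate 2 highest and replicate 3 lowest, with 169.2, 288.7 and 64.6 for Ifit3. Over the interferon genes of array A with a promoter, that order held in 6 of 11 with a match, and Ifi27, Ifitm3, Bst2, Psmb8 and Tap1 did not follow it. It held in 3 of 7 without a match, namely Mx1, Stat2 and Oasl. A match is a description of letters and does not show that a factor binds.

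Proliferation and angiogenic genes were mixed. Cell cycle genes had 18 of 23 above, all 18 on every array, at a median percentile of 63.8. Pcna, the sliding clamp of replication, read 1427.9, 2807.5 and 1354.9, and Mki67, the proliferation antigen, 198.2, 351.4 and 260.1. Aurka, Ccne1, Tyms and Bub1b were not above. On array B Prc1, which bundles the spindle midzone, stood at percentile 96.1 with 1516.8, 1332.6 and 1425.6.

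Angiogenic ligands and receptors had 18 of 31 above, or 58.1%. Angpt2, the ligand that loosens vessels, read 821, 953.5 and 747.4 and Vegfc, the ligand of lymphatic growth, 582.2, 458 and 605.9. Flt4, the receptor of Vegfc, read 19.8, 10.6 and 3.8, and Hgf, hepatocyte growth factor, 2.2, 6.8 and 7, both not above. Binding proteins of insulin-like growth factors had 6 of 7 above, with Igfbp7 at 4247.5, 5947.1 and 4731.1 and Igfbp3 at 1962, 3544.9 and 3086.9, and Igfbp1, the liver form, was not.

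The general cell machinery set the upper end. Ribosomal proteins had 30 of 31 above at a median percentile of 99.6, and Rpl30 (22.7, 45 and 51.9) was the exception. Cytoskeletal genes had 20 of 20 above at 97.6, with Anxa1, an annexin, at 4129.1, 8050.4 and 5151. The 8 genes with the largest SD among the 500 top-ranked of array A were Serpinh1, Eef2, Tagln, Apoe, Itm2c, Gpx1, Pdap1 and Rplp0, and replicate 2 was the lowest array for all 8. Eef2, the elongation factor that moves the ribosome, read 2263.1, 47.8 and 3255.8, and Rplp0, a ribosomal stalk protein, 3907.3, 319.2 and 4330.4.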

How the data were processed

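Intensities, on a linear scale, were deposited by the authors, who used MAS5 per the submitters' processing notes (version not given in the sources). Each of the 6 arrays had a mean of 250.1 after trimming 2% at each end, checked on the values. No detection calls were used here. Control probe sets, 57 per array type, were left out. Symbols came from the platform annotation, updated by gene ID: 12783 of 15866 probe sets on array A had 1 symbol, 312 several and 2771 none, and on array B 7564 of 15276, 100 and 7612. This covered 10411 and 5667 genes, and probe sets with several symbols named none.

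Signals, percentiles and counts above the off-tissue level were computed within each array with Python 3.11.15, pandas 2.3.3 and numpy 2.4.6, and the code was tested on simulated data. With 1 group there is no test, and the number of arrays limits the precision. The plan set a level on both array types, but the few off-tissue genes on array B allowed none there. Named genes are the 25 highest on array A and 15 on array B, up to 6 highest and 4 lowest per list and all defining markers, and the 8 of largest SD. Tnf, Il6, Ifit3, Oasl, Bst2 and Psmb8 were chosen after their values were seen. The members and the 49 lists were chosen with earlier results of these data known. Alternatives were the percentile of the level, the number of arrays, the probe set, the summary, the pseudocount, quantile normalisation and leaving out each replicate.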

Additional observations from a re-analysis of the deposited data

Results flagged for a closer look

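Control probe sets for bacterial RNAs, which are no rat genes, differed between the RNAs. The lys control read 324.5 in replicate 1 on array A and 956 on array B, against at most 44.2 in replicates 2 and 3. The dap control read 1068.2 and 3235.8 in replicate 2, against at most 20.2 in the others. The trp control read 436.6 and 1749 in replicate 3, against at most 8 in the others. Each RNA thus carried another control on both array types, and these probe sets entered no count of the report.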

How the results depend on the processing

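Of 441 counts of genes above the off-tissue level recomputed over the alternatives, 416 stayed within 1.5 times, and of 354 median percentiles 299 moved by less than the SD between replicates. The share of all genes above was 55.1% to 75.3% under every alternative. Requiring all 3 arrays gave 9 endothelial, 1 lymphocyte, 0 mast cell and 4 adipocyte genes. A level at the 95th percentile of the off-tissue list gave 1 lymphocyte, 4 adipocyte, 0 mesothelial and 1 chondro-osteogenic gene, and at the 75th percentile 2 mast cell, 7 Schwann cell, 2 mesothelial, 2 erythroid, 5 striated muscle and 7 acute phase genes. The mean over a gene's probe sets gave 2 mast cell, 2 mesothelial, 1 chondro-osteogenic and 1 erythroid gene. It lowered medians to 70.8 (smooth muscle contractile), 64.6 (pericyte), 89.8 (modulated smooth muscle), 25.2 (mesothelial), 23.3 (chondro-osteogenic), 83.1 (basement membrane), 65.7 (proteoglycans), 73.4 (plasminogen system), 69.7 (fatty acid), 63.5 (cholesterol), 70.2 (lipid handling), 64.2 (hypoxia), 45.8 (prostanoid), 66.8 (leukocyte adhesion), 60.9 (complement), 69.9 (MHC class I), 56.3 (cell cycle), 45.5 (angiogenic), 99.3 (ribosomal) and 96.4 (cytoskeleton), because dimmer probe sets enter. The mean of log2 signal gave medians of 25 (lymphocyte), 84.9 (proteoglycans), 90.5 (matricellular), 88 (citric acid cycle), 74.3 (lipid handling), 33.5 (cytokines), 45.3 (prostanoid) and 61.5 (NF-kB), and quantile normalisation 75.4 (cholesterol); the cause was not tested.

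Leaving out 1 replicate at a time, with a gene then above on both remaining arrays, gave 9 to 16 endothelial genes (9 without replicate 1 or 3), 1 to 4 lymphocyte (1 without replicate 1 or 2), 0 to 1 mast cell (0 without replicate 1 or 2) and 4 to 6 adipocyte genes (4 without replicate 2). Medians ran from 16.1 to 18.4 (neutrophil), 22 to 24.7 (lymphocyte), 20.4 to 25.3 (mast cell), 76.7 to 86 (proteoglycans), 89.2 to 92.7 (matricellular), 87.7 to 89.2 (citric acid cycle), 73.4 to 76.4 (cholesterol), 32.1 to 34.2 (cytokines), 44.5 to 46.6 (prostanoid), 58 to 64 (NF-kB), 71.3 to 76.1 (complement), 65.4 to 78.4 (interferon), 58.9 to 66.7 (cell cycle) and 99.4 to 99.5 (ribosomal). The median SD ran from 0.22 to 0.38 (array A) and 0.26 to 0.36 (array B), lowest without replicate 2. No paired analysis was possible because there is 1 group and no comparison between groups.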

Other observations

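Some genes were read by both array types with unlike results, and these were chosen after their values had been seen. Kdr stood at percentile 80 on array A and 31.8 on array B (66.5, 35.5 and 70.1). Cybb read 124.9, 134.1 and 68.1 on array A, percentile 54.5, and percentile 99.6 on array B. Col11a1 read 18.2, 69.4 and 18.3 on array A, whereas array B gave 727.3, 1425.3 and 1092, percentile 94.4. Lipe, the hormone-sensitive lipase, stood at percentile 14.3 on array A and 91.8 on array B. The count of a list on array A therefore depends on which probe set that array holds.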
